A study of Mus musculus with 12 samples.

Results

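Mitochondrial ribosomal proteins were taken as every row of the deposited table whose gene symbol is Mrpl or Mrps followed by a digit, Mrpl standing for the large and Mrps for the small subunit of the ribosome inside mitochondria. The rule found 58 of 15154 rows, 35 of the large and 23 of the small subunit by symbol, and all 58 symbols are still in use. The table came from Illumina bead arrays of colonocytes, the absorptive epithelial cells of the colon, isolated from C57BL/6 mice with no genetic alteration given in the labels. Of the 12 samples, 6 came from germfree mice kept in isolators (GF) and 6 from conventionally raised mice (CONV), and each of 2 labelled batches held 3 samples of each group. Replicates 1 to 3 are batch 1 and replicates 4 to 6 are batch 2. The labels call the samples of a group biological replicates, give neither age nor sex, and do not say whether a sample is 1 mouse or a pool.

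Mitochondria keep a small genome that codes for core subunits of the respiratory chain and the ATP synthase, and their own ribosome translates these messages. All proteins of that ribosome are coded in the nucleus, made in the cytosol and imported, and they are assembled on rRNA that mitochondria make themselves. Many have a counterpart in the bacterial ribosome, and others were gained in the evolution of mitochondria. Colonocytes draw much of their energy from oxidation of butyrate, a short fatty acid that gut bacteria produce and that germfree mice lack, which is why their mitochondria are of interest in this comparison.

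Of the 58 genes, 53 had a detection p below 0.05 on at least 3 of the 12 arrays and entered the test, 32 of the large and 21 of the small subunit, and 44 were detected on all 12 arrays. The 5 that did not pass were Mrpl21, Mrpl32, Mrpl45, Mrps14 and Mrps22. Signals of Mrpl21, Mrpl32, Mrpl45 and Mrps14 lay between 4.53 and 5.49 on the log2 scale on every array. The row of Mrps22, a small subunit protein without a bacterial counterpart, lay between 4.67 and 4.89 in batch 1 but between 8.66 and 9.37 in batch 2, where its deposited detection p was nevertheless 0.480 to 0.500. In batch 2 its GF values were 8.85, 8.66 and 8.93 and its CONV values 9.08, 9.18 and 9.37, without overlap. With no detection filter its difference over 12 arrays was -0.24 ± 0.08 (SE), with a limma adjusted p = 0.0886.

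In GF colonocytes the mitoribosomal protein transcripts lay mostly a little below their level in CONV colonocytes. Of the 53 genes tested, 10 fell (18.9%) and 0 rose at an adjusted p below 0.05 (limma, Benjamini-Hochberg over 8107 genes), whereas 12.0% of all genes tested fell and 11.3% rose. With 75th percentile scaling or cyclic loess, 2 small subunit genes rose, Mrps23 and Mrps31, beside 1015 and 998 of all 8107 genes. With array weights Mrpl24 of the large subunit rose as well, beside 2109 of all genes. The large subunit held 6 of the genes that fell, of 32 tested (18.8%), and the small subunit 4 of 21 (19.0%). At an unadjusted p below 0.05, 13 large subunit genes were lower and 1 was higher, and 6 small subunit genes were lower and 3 higher. Below zero lay 45 of the 53 differences (84.9%), against 48.8% of those of all genes. The median GF minus CONV difference was -0.16 (log2) for the large and -0.08 for the small subunit, beside 0.01 for all genes tested. These shifts were small: the 10 genes that fell had GF levels between 75.9% and 86.4% of their CONV levels. Without GF replicate 1, GF replicate 2 or GF replicate 3 the count of large subunit genes called was 3 in place of 6. Without GF replicate 1 the count over all genes was 1367 in place of 1888. In whole-cell RNA, fewer cells of a kind and less RNA per cell cannot be told apart.

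**Figure D1:**
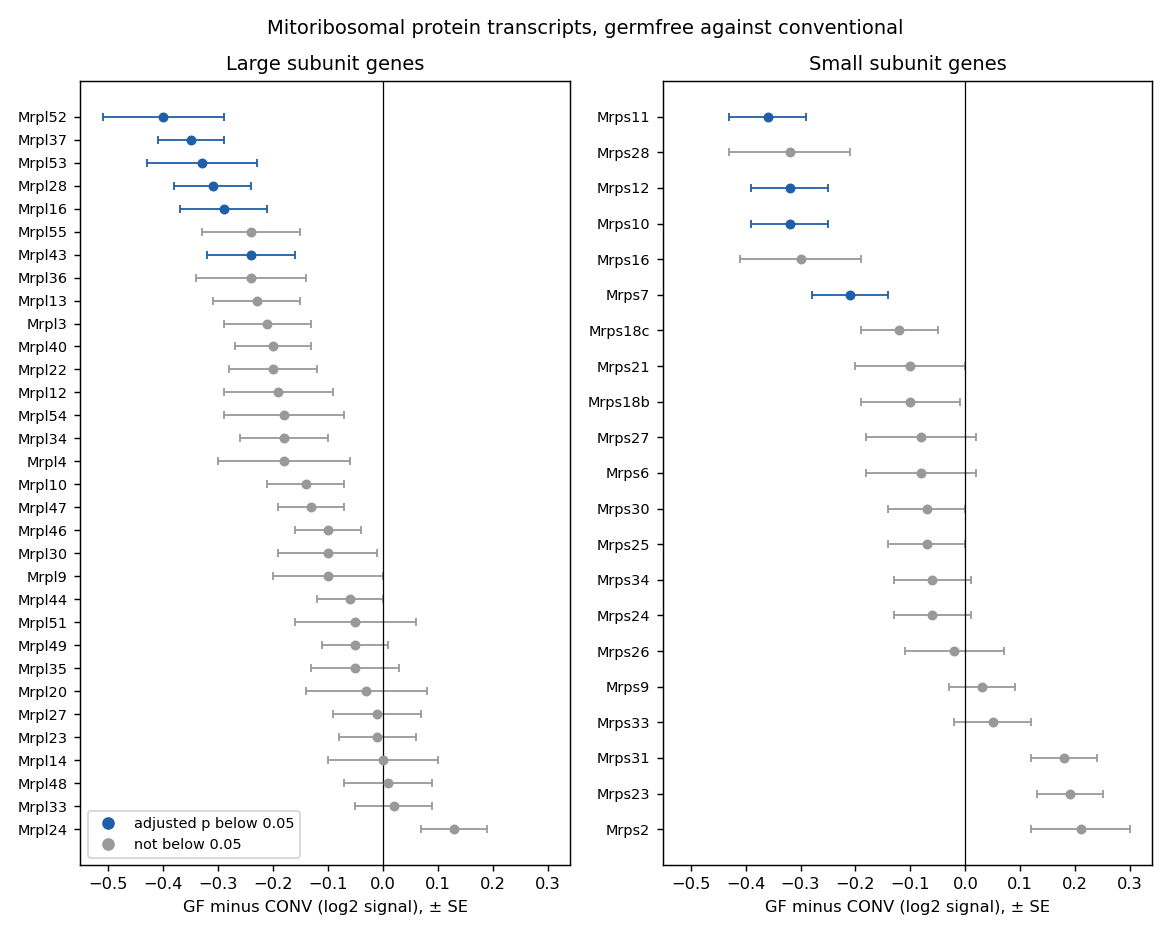
GF minus CONV difference of signal (log2, horizontal axis) for each of the 32 large subunit and 21 small subunit genes tested, ordered by size, with points for the estimate over 12 arrays and bars for ± 1 SE. Most points lie left of zero, the 10 blue points have an adjusted p below 0.05, and Mrps2, Mrps23 and Mrps31 lie farthest to the right.

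Among the large subunit genes that fell, 4 code for proteins found in the mitochondrial but not in the bacterial ribosome. Mrpl52 had log2 signals of 10.39, 10.68 and 10.67 in CONV and of 10.33, 10.31 and 10.23 in GF of batch 1, and of 10.77, 10.44 and 10.67 in CONV and 9.75, 10.31 and 10.28 in GF of batch 2. GF lay below CONV in both batches without overlap, and the value 9.75 of GF replicate 4 stood well under the others. The difference of Mrpl52 was -0.40 ± 0.11 (SE, n = 6 per group; limma adjusted p = 0.0210), which puts GF at 75.9% of CONV.

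Mrpl37, another mitochondria-specific protein, had signals of 10.87, 10.86 and 10.86 in CONV and 10.40, 10.40 and 10.50 in GF of batch 1. In batch 2 they were 10.74, 10.93 and 10.85 in CONV and 10.53, 10.60 and 10.60 in GF. All 6 GF values were lower than all 6 CONV values, and the fall was -0.35 ± 0.06 (SE; adjusted p = 0.00168), to 78.7% of CONV.

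Mrpl53 behaved differently in the batches. Its signals in batch 1 were 11.27, 11.43 and 11.38 in CONV and 10.83, 10.78 and 10.70 in GF, far apart, while in batch 2 CONV had 11.57, 11.51 and 11.65 and GF 11.40, 11.66 and 11.45, which overlap. The difference over both batches was -0.33 ± 0.10 (adjusted p = 0.0299). Mrpl43 showed a like picture, with 11.03, 11.16 and 11.13 in CONV against 10.68, 10.68 and 10.73 in GF of batch 1, and 10.70, 10.91 and 10.93 against 10.76, 10.87 and 10.71 in batch 2. GF was again lower without overlap in batch 1 and overlapped CONV in batch 2. Its difference was -0.24 ± 0.08 (adjusted p = 0.0473).

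The other large subunit genes that fell have bacterial counterparts. Mrpl28 gave 12.45, 12.29 and 12.32 in CONV and 12.07, 12.10 and 12.13 in GF of batch 1, then 11.91, 12.08 and 12.03 in CONV and 11.68, 11.80 and 11.46 in GF of batch 2. The groups did not overlap in either batch and the difference was -0.31 ± 0.07 (adjusted p = 0.00848). Mrpl16, whose bacterial counterpart sits near the site where peptide bonds are made, gave 10.38, 10.56 and 10.49 in CONV and 10.12, 10.11 and 10.06 in GF of batch 1. Its row was much dimmer in batch 2 (-2.39 log2 units), at 8.07, 7.72 and 8.18 in CONV and 7.81, 7.72 and 7.85 in GF, where the groups overlapped. The difference was -0.29 ± 0.08 (adjusted p = 0.0270).

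All 4 small subunit genes that fell have bacterial counterparts. Mrps11, a protein of the platform of the small subunit, had 9.09, 9.26 and 9.17 in CONV and 8.74, 8.69 and 8.80 in GF of batch 1, and 9.02, 8.84 and 9.11 in CONV and 8.62, 8.78 and 8.69 in GF of batch 2. Every GF value lay below every CONV value, with a difference of -0.36 ± 0.07 (SE, n = 6 per group; limma adjusted p = 0.00292), or 77.8% of CONV. Mrps12, which lies at the decoding centre where codons are read, had 11.86, 12.05 and 12.11 in CONV and 11.64, 11.60 and 11.65 in GF of batch 1. In batch 2 it had 12.16, 12.09 and 12.30 in CONV and 11.95, 11.87 and 11.94 in GF, so that GF was lower without overlap within each batch. The difference was -0.32 ± 0.07 (adjusted p = 0.00457).

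Mrps10 and Mrps7 code for proteins of the head of the small subunit. Mrps10 had 9.24, 9.24 and 9.28 in CONV and 8.89, 8.88 and 8.78 in GF of batch 1, and 8.84, 8.78 and 9.09 in CONV and 8.58, 8.70 and 8.70 in GF of batch 2. GF was lower without overlap in both batches, by -0.32 ± 0.07 over all arrays (adjusted p = 0.00629). For Mrps7 the values were 9.59, 9.68 and 9.63 in CONV and 9.44, 9.45 and 9.60 in GF of batch 1, and 10.90, 11.09 and 11.11 in CONV and 10.70, 10.65 and 10.91 in GF of batch 2. The groups of Mrps7 overlapped by 1 array in each batch, and its difference of -0.21 ± 0.07 had an adjusted p = 0.0494.

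**Figure D2:**
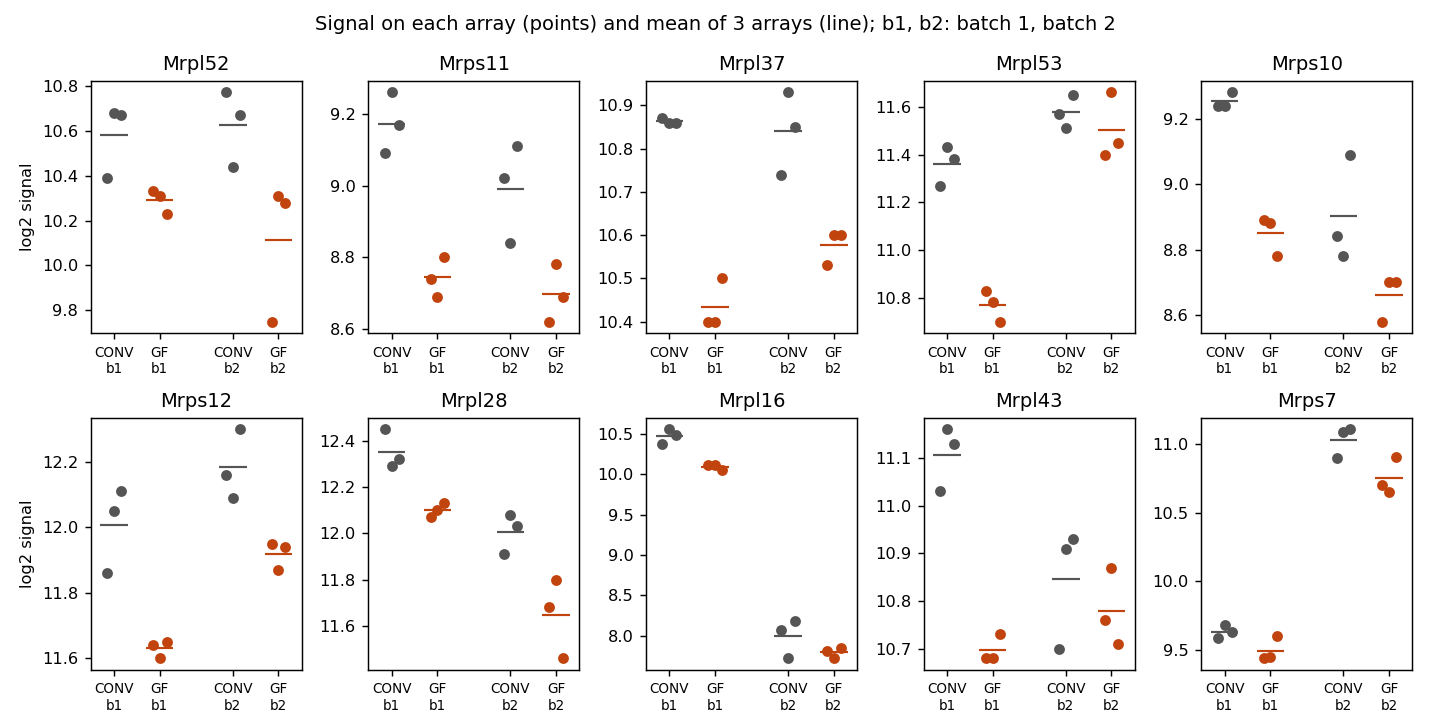
Log2 signal (vertical axis, a separate scale for each gene) of the 10 genes that fell, on each of the 12 arrays, with CONV in grey and GF in orange, batch 1 on the left and batch 2 on the right of each panel, and lines for the means of 3 arrays. GF points lie below CONV points without overlap in both batches for Mrpl28, Mrpl37, Mrpl52, Mrps10, Mrps11 and Mrps12, and Mrpl16, Mrpl43 and Mrpl53 show the gap in batch 1 alone.

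Calls near the threshold depended on single arrays. Mrpl43 lost its call without CONV replicate 1, 2, 3, 5 or 6 or GF replicate 1, 2, 3, 4 or 6, and Mrps7 without CONV replicate 1, 2, 3, 5 or 6 or GF replicate 1, 2, 4 or 5. Mrpl53 lost it without any of the 6 arrays of batch 1, and Mrpl16 without CONV replicate 2, 3 or 6 or GF replicate 1, 2 or 3. Mrpl28, Mrpl37, Mrpl52, Mrps10, Mrps11 and Mrps12 kept theirs whichever array was left out.

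Promoters of mitoribosomal genes are known to hold sites for NRF1, for ETS factors such as GABPA and for YY1, regulators of many nuclear genes for mitochondria. RefSeq promoter windows of mouse assembly GRCm38.p6, reaching from 250 bases before to 50 after a gene's start, were at hand for 53 of the 58 genes in 57 windows. Both strands were searched for exact matches to CCGGAAG (ETS), AAGATGGCG (YY1) and CGCATGCG (the core of the NRF1 motif), none of which contains another. The ETS letters stood in 36.8% of the windows of these genes, against 8.86% of all 32851 promoter windows, and the YY1 letters in 10.5% against 1.4%. NRF1 letters stood in 8.77% against 1.87%, and at least 1 of the 3 motifs in 50.9% against 11.5%. Mean GC content was 58.8% against 53.8%. The 10 genes that fell had 1 window each, and 6 of these windows had a match (60%), beside 29 of all 57 windows (50.9%). Some other genes have several windows, and counted by gene 29 of the 53 had a match. An NRF1 match stood in 0 of the 10. These are matches of letters, not measured binding.

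The windows of the 6 genes that fell and had a match are printed 5′ to 3′ on the gene's strand to show where the matches sit. Whether these genes share a control was not tested. Capitals mark the matches, CCGGAAG or its complement CTTCCGG for ETS and AAGATGGCG or CGCCATCTT for YY1. In Mrpl52, Mrpl53 and Mrpl43 the ETS letters occur on 2 places close to the start, in Mrps12 on 1, and in Mrpl37 and Mrps11 a YY1 match stands alone.
Mrpl52 (chr14:54426659-54426958, plus strand, GRCm38.p6): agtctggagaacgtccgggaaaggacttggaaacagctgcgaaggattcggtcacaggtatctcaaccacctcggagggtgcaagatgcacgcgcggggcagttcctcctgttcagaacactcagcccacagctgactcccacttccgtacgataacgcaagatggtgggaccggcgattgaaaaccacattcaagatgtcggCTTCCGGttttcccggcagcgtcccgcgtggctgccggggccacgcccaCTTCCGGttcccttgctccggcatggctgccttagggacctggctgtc
Mrpl53 (chr6:83108858-83109157, plus strand, GRCm38.p6): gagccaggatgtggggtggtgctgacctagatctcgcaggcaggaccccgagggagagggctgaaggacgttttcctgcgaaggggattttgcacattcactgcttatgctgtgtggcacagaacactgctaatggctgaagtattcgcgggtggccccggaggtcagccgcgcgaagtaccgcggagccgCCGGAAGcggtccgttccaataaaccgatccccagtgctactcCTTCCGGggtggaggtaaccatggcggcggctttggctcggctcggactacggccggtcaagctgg
Mrpl43 (chr19:45006393-45006692, minus strand, GRCm38.p6): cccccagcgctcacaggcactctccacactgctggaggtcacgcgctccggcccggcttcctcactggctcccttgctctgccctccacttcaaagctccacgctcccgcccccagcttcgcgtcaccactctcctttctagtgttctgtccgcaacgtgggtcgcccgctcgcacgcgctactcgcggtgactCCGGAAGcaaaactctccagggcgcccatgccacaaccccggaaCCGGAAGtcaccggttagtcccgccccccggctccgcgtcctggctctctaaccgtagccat
Mrps12 (chr7:28741772-28742071, minus strand, GRCm38.p6): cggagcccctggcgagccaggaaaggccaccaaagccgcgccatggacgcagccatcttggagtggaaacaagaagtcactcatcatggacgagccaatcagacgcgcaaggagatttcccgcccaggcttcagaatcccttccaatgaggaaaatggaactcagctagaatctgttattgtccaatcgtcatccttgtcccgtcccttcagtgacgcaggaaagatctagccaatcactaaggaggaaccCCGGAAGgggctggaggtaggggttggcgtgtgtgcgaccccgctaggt
Mrpl37 (chr4:107066817-107067116, minus strand, GRCm38.p6): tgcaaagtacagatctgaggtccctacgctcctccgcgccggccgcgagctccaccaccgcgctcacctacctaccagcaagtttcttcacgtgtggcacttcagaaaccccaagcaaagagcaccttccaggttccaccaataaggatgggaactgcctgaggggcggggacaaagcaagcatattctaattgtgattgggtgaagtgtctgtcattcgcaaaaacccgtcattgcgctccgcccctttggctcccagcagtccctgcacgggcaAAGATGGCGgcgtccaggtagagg
Mrps11 (chr7:78782881-78783180, plus strand, GRCm38.p6): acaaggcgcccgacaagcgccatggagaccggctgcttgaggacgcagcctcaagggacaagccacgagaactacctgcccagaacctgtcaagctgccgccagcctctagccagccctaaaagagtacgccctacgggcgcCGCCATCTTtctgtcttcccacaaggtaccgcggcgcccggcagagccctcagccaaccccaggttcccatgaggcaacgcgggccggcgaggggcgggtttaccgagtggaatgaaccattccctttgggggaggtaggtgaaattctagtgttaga

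The gene of Mrps11 has a neighbour of its own kind. Mrpl46, of the large subunit, starts 42 bases away on the opposite strand of chromosome 7, and the promoter windows of the pair overlap by 141 bases. The YY1 match of Mrps11 reads AAGATGGCG on the strand of Mrpl46. It lies downstream of the Mrpl46 start, just past the edge of the Mrpl46 window, and so was not counted for Mrpl46. While Mrps11 fell, the difference of Mrpl46 was -0.10 ± 0.06 (limma adjusted p = 0.267), lower than zero in batch 1 (-0.07) and in batch 2 (-0.14). Whether the pair differ from each other was not tested, and Mrpl46 was chosen for its position after its values were seen.

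The 4 genes of the small subunit that lay highest in GF were Mrps2 (0.21 ± 0.09; adjusted p = 0.127), Mrps23 (0.19 ± 0.06; adjusted p = 0.0561), Mrps31 (0.18 ± 0.06; adjusted p = 0.0594) and Mrps33 (0.05 ± 0.07; adjusted p = 0.637). Mrps23, a mitochondria-specific protein, had 10.77, 10.69 and 10.69 in CONV and 10.77, 10.81 and 10.87 in GF of batch 1, and 11.20, 11.06 and 11.15 in CONV and 11.38, 11.53 and 11.30 in GF of batch 2. It was the only gene of the 53 whose GF values lay above all CONV values in both batches, though the values closest to each other in batch 1 both round to 10.77. Its p missed the threshold in the fit over 12 arrays, but with 75th percentile scaling or cyclic loess in place of quantile normalization Mrps23 (0.20 and 0.19) and Mrps31 (0.20 and 0.19) rose. The 2 rows differ in how they were detected, Mrps23 on all 12 arrays and Mrps31 on 6. In the large subunit Mrpl24, which lies near the exit of the peptide tunnel, was highest at 0.13 ± 0.06 (adjusted p = 0.130), and its signals of 12.20, 12.22 and 12.28 in GF stood above 12.05, 12.01 and 12.03 in CONV in batch 1 alone.

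Just outside the threshold on the lower side stood Mrps28 (-0.32 ± 0.11; adjusted p = 0.0531), Mrpl13 (-0.23 ± 0.08; adjusted p = 0.0547), Mrpl40 (-0.20 ± 0.07; adjusted p = 0.0572) and Mrps16 (-0.30 ± 0.11; adjusted p = 0.0620), of which Mrpl13 and Mrpl40 are named for their p. The estimates of Mrps28 and Mrps16 were as large as those of several genes that fell. Mrps28 was lower in batch 1 (10.20, 10.46 and 10.46 in CONV against 9.92, 9.96 and 9.70 in GF) and overlapped in batch 2 (9.55, 9.54 and 9.96 against 9.37, 9.66 and 9.63). For Mrps16 the GF values of batch 2, at 9.77, 10.33 and 9.86, spread more widely than those of batch 1, at 10.15, 10.17 and 10.26.

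Of the brightest rows that were not called, Mrpl23, Mrpl14 and Mrpl33, proteins of the large subunit with bacterial counterparts, differed by -0.01 ± 0.07, -0.00 ± 0.10 and 0.02 ± 0.07. The value of Mrpl14 averages a difference of -0.20 in batch 1, where GF (11.05, 10.97 and 11.03) lay below CONV (11.07, 11.28 and 11.30) without overlap, and of 0.19 in batch 2. The mitochondria-specific Mrpl48, the highest of the large subunit after Mrpl24 and Mrpl33, gave 0.01 ± 0.08. Mrps24, Mrps34 and Mrps6 of the small subunit differed by -0.06 ± 0.07, -0.06 ± 0.07 and -0.08 ± 0.10. Mrpl12, the stalk protein that recruits translation factors and also binds the mitochondrial RNA polymerase in human cells, had a difference of -0.19 ± 0.10 (adjusted p = 0.184). Its values in batch 1 were 12.88, 12.85 and 12.88 in CONV against 12.69, 12.66 and 12.62 in GF, and in batch 2 12.41, 12.68 and 13.10 against 12.47, 12.56 and 12.65. So Mrpl12 was lower without overlap in batch 1, while in batch 2 the CONV values alone spanned the GF values. Its partner in the stalk, Mrpl10, differed by -0.14 ± 0.07 (adjusted p = 0.179).

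Of the other landmark genes, Mrpl3 gave -0.21 ± 0.08 (adjusted p = 0.0793) and Mrpl44, which has a fold related to RNase III, -0.06 ± 0.06 (adjusted p = 0.532). Mrps18b and Mrps18c, related proteins of the small subunit, gave -0.10 ± 0.09 and -0.12 ± 0.07 (adjusted p = 0.488 and 0.291). Mrps30, whose protein sits in the large subunit in spite of its name, gave -0.07 ± 0.07 (adjusted p = 0.502). All small subunit counts and medians here include it, by its symbol. Mrpl20 was detected on 3 CONV and 0 GF arrays. Its mean signal was nevertheless 10.04 in CONV and 10.01 in GF, a difference of -0.03 ± 0.11 (adjusted p = 0.887), and its detection p lay off the even steps of other rows in both batches. Mrpl11, Mrps18a and Mrps36 were not analysed here.

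Within batches the fall was clearer in batch 1. From a fit with 4 means, 12 genes were lower in batch 1 (8 of the large and 4 of the small subunit; 11.6% of all genes were lower) and 0 were higher (11.8% of all genes were). In batch 2, 5 of the 53 were lower, namely Mrpl28, Mrpl37, Mrpl52, Mrps11 and Mrpl13, the last named because of the small count. That share was close to the 8.91% of all genes that were lower. Mrpl13 was detected on 4 CONV and 2 GF arrays, and its detection p lay off the even steps in both batches. Mrps23 alone was higher in batch 2 (8.10% of all genes were). The median difference of the large subunit was -0.21 in batch 1 and -0.06 in batch 2, and that of the small subunit -0.11 and -0.07, beside 0.01 in both batches for all genes. In batch 1 the GF values of 25 of the 53 genes lay below all CONV values (28.4% of all genes), in batch 2 those of 8 (12.9%), and in both those of 6 (7.03%). Above all CONV values lay 3 of the 53 in batch 1 (28.1% of all genes) and 2 in batch 2 (13.2%), and in both batches Mrps23 alone (6.61%). Below zero in both batches were 33 of 53 (62.3%, against 29.3% of all genes). Repeat arrays of a group scattered more in batch 2, with a median SD of these genes of 0.13 against 0.07 in batch 1.

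The difference between batches was itself called for 3 of the 53 genes, Mrpl4, Mrpl9 and Mrpl53, at a limma interaction adjusted p below 0.05. That share was lower than the 8.89% of all genes. Mrpl9 went opposite ways. In batch 1 its signals were 9.99, 10.07 and 10.14 in CONV and 9.69, 9.73 and 9.61 in GF, and in batch 2 10.20, 10.27 and 10.31 in CONV and 10.40, 10.54 and 10.38 in GF. GF was thus below CONV without overlap in batch 1 and above it without overlap in batch 2, and the difference between the batches was -0.57 ± 0.11 (SE; limma adjusted p = 0.0106). Mrpl4, a protein that lines the tunnel through which new peptides leave, had 9.52, 9.74 and 9.81 in CONV and 9.26, 9.08 and 9.29 in GF of batch 1, and 9.64, 9.62 and 9.56 against 9.90, 9.56 and 9.73 in batch 2. It was lower in GF of batch 1 and overlapped in batch 2, with a difference between batches of -0.60 ± 0.15 (adjusted p = 0.0351). For Mrpl53 that value was -0.52 ± 0.13 (adjusted p = 0.0280).

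**Figure D3:**
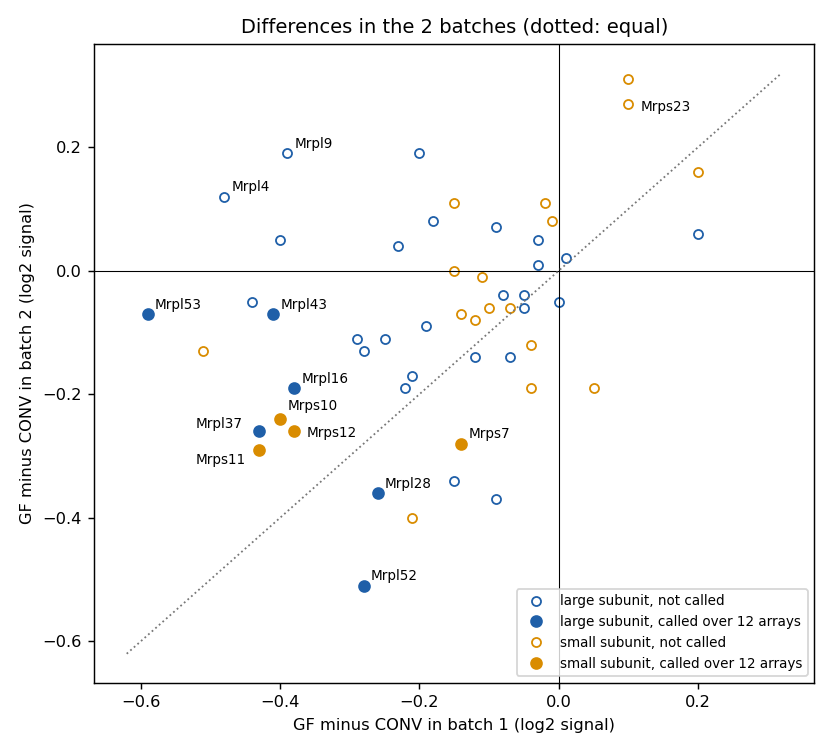
GF minus CONV difference (log2) in batch 1 on the horizontal and in batch 2 on the vertical axis for the 53 genes tested, blue for the large and orange for the small subunit, filled where the gene fell over 12 arrays. The genes crowd left of zero, 33 of them below zero in both batches, and more of them lie above the dotted line of equal differences than under it, while Mrpl4 and Mrpl9 lie at the upper left.

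Per array, the large subunit genes lay below the CONV mean on every GF array of batch 1, with mean deviations of -0.20, -0.22 and -0.21, while the CONV arrays ran from -0.05 to 0.03. In batch 2 the GF arrays had -0.14, -0.05 and -0.06 and the CONV arrays -0.06, -0.04 and 0.11, which overlap. The small subunit gave -0.12, -0.13 and -0.11 in GF of batch 1 and -0.14, 0.01 and -0.06 in GF of batch 2, against -0.05, -0.07 and 0.12 in CONV of batch 2. In both subunits GF replicate 4 was the lowest and CONV replicate 6 the highest array of batch 2. Their genes' deviations from the group means of a batch correlated across the 12 arrays with a mean pairwise r of 0.17 within the large subunit, 0.18 within the small and 0.20 between them, beside 0.16 for cytosolic ribosomal proteins, 0.11 for respiratory chain subunits and 0.00 for all genes. The 12 points of each r share the arrays and their scaling, and the values describe these arrays alone.

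**Figure D4:**
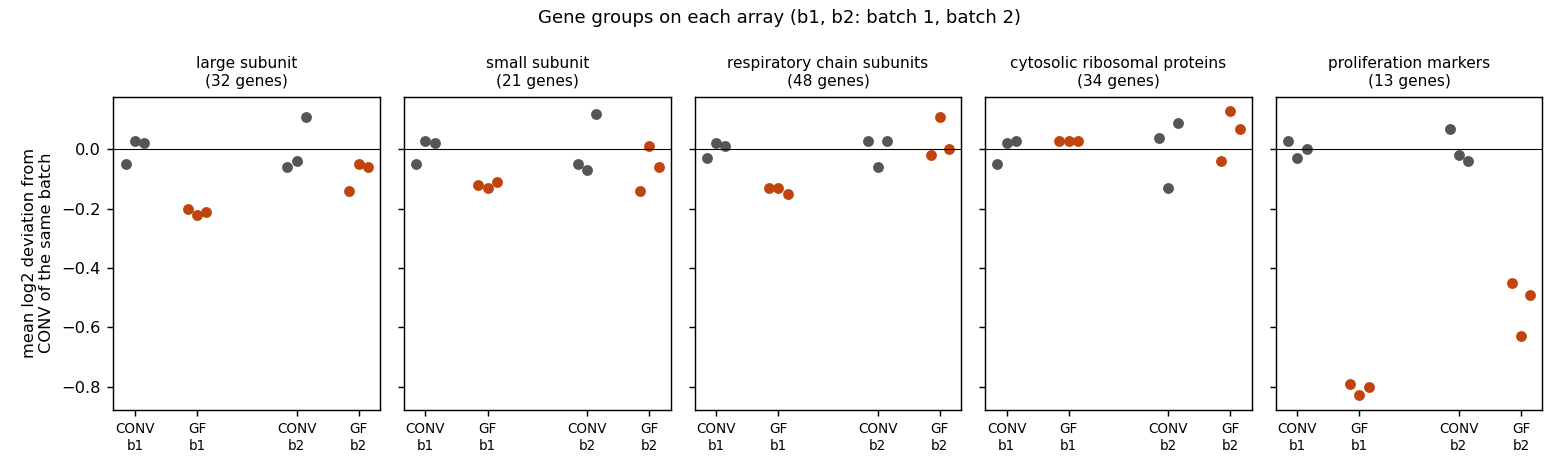
Mean log2 deviation from the CONV mean of the same batch (vertical axis) on each array for 5 groups of genes, CONV in grey and GF in orange. The large and small subunit genes lie below CONV on the 3 GF arrays of batch 1 and overlap CONV in batch 2, as do the respiratory chain subunits (-0.13, -0.13 and -0.15 in GF of batch 1), the cytosolic ribosomal proteins show no gap between the groups, and the proliferation markers lie far lower in GF of both batches.

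By origin of the protein, 2 of 21 large subunit genes with a bacterial counterpart fell (9.52%; median -0.14) and 4 of 11 mitochondria-specific ones (36.4%; median -0.18), beside 12.0% of all genes. In the small subunit it was the other way, with 4 of 13 genes with a bacterial counterpart (30.8%; median -0.12) and 0 of 8 mitochondria-specific genes (median -0.04), of which 2 were higher and 0 lower at an unadjusted limma p below 0.05. Mrps30 is counted among these 8 by its symbol. The differences between these classes were not tested.

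Further genes of mitochondrial translation were set beside the ribosomal proteins, and their counts are read against the 12.0% of all genes that fell and the 11.3% that rose. Among 6 mitoribosomal proteins with other symbols 1 fell (16.7%), Chchd1 of the small subunit (-0.24 ± 0.06; adjusted p = 0.0152), and Ptcd3 of the small subunit (-0.40 ± 0.14; adjusted p = 0.0565) and Ict1 of the large subunit (-0.23 ± 0.08; adjusted p = 0.0615) had negative differences that missed the threshold. Their median was -0.19. Of 12 translation factors 2 fell (16.7%), Tufm, which brings aminoacyl-tRNAs to the ribosome (-0.37 ± 0.07; adjusted p = 0.00186), and Tsfm, which recharges it (-0.27 ± 0.06; adjusted p = 0.00958), with a median of -0.17. Of 15 aminoacyl-tRNA synthetases that serve mitochondria, 4 fell (26.7%), Sars2 (-0.35), Gars (-0.30) and Lars2 (-0.41) among them, 1 rose (6.67%), Mars2 (0.45 ± 0.07; adjusted p = 0.000731), and the median was -0.18. Gars also serves the cytosol.

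Genes that assemble the mitoribosome or modify its rRNA went both ways. Of 18 tested, 3 rose (16.7%) and 1 fell (5.56%): the RNA helicase gene Dhx30 (0.29 ± 0.07; adjusted p = 0.0112), Fastkd5 (0.27 ± 0.08; adjusted p = 0.0350) and Mettl17 (0.24 ± 0.08; adjusted p = 0.0405) rose and the GTPase gene Gtpbp10 fell (-0.33 ± 0.10; adjusted p = 0.0311), with a median of 0.04. None of 7 genes of mitochondrial transcription and DNA upkeep was called (0 at an unadjusted limma p below 0.05; median 0.01). Of 5 regulators 0 were called and 1, Ppargc1a, a coactivator of mitochondrial genes, had an unadjusted p below 0.05 (0.40 ± 0.17; adjusted p = 0.112). Nrf1 gave 0.10 ± 0.07 (adjusted p = 0.373) and Gabpa, detected on 4 arrays, -0.05 ± 0.11 (adjusted p = 0.799).

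Among 34 genes named as cytosolic ribosomal proteins only Rpl38 fell (-0.20 ± 0.07; adjusted p = 0.0424), and their median was 0.03. Ribosomal proteins of this kind build the ribosome outside mitochondria, but the list was drawn by symbol and also holds Rps19bp1, named as a binding protein. Of the 34 genes, 13 lay below zero. Respiratory chain and ATP synthase subunits coded in the nucleus, 48 genes by symbol of which Ndufa12l is now named as the assembly factor Ndufaf2, had 1 gene that rose (Ndufa4, 0.29 ± 0.09; adjusted p = 0.0342), 1 that fell (Ndufs8, -0.22 ± 0.07; adjusted p = 0.0394) and a median of -0.05, with -0.13 in batch 1 and 0.01 in batch 2. Below zero lay 37 of the 48 (77.1%, against 48.8% of all genes). In batch 1 the GF values of 24 lay below all CONV values (28.4% of all genes) and those of 4 above (28.1%). There 9 were called lower (11.6% of all genes) and 1 higher (11.8%). In batch 2 the GF values of 4 lay below all CONV values (12.9% of all genes) and those of 7 above (13.2%). There 0 were called lower (8.91% of all genes) and 2 higher (8.10%). No difference between any of these lists and the mitoribosomal genes was tested.

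**Figure D5:**
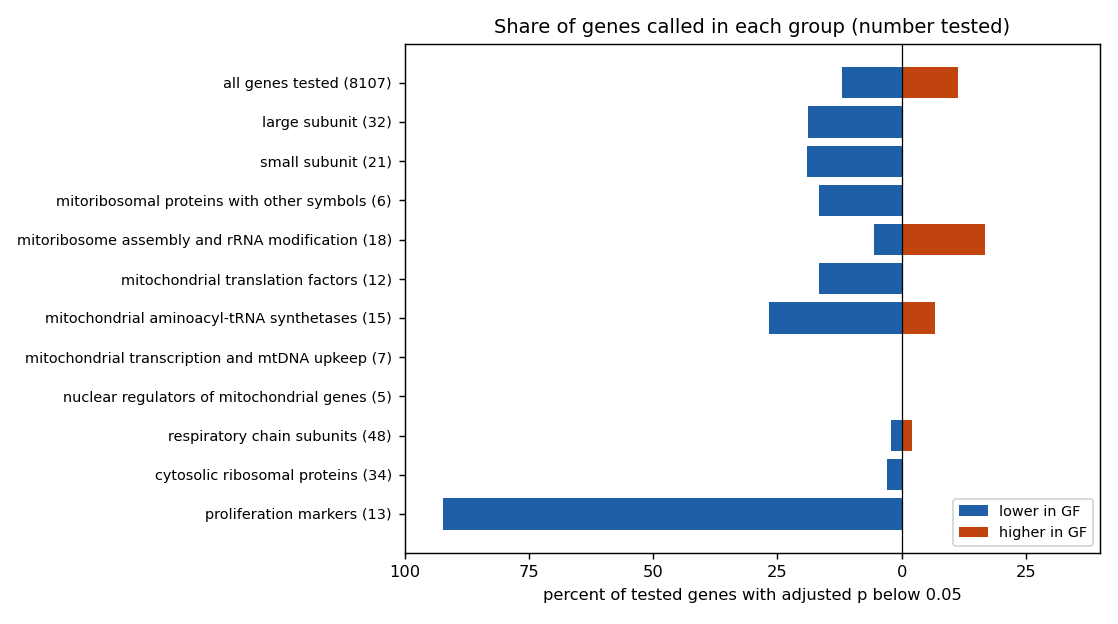
Percent of the genes tested in each group with an adjusted p below 0.05, lower in GF to the left in blue and higher in GF to the right in orange, with the number tested in brackets. The large and small subunit show 18.8% and 19.0% lower and 0% higher, beside 12.0% and 11.3% of all genes, and proliferation markers 92.3% lower.

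Other changes ran beside these. Of 13 proliferation markers 12 fell (median -0.71), and their summed signal was 8568 to 9222 in CONV against 4784 to 4981 in GF of batch 1 and 7499 to 7915 against 4504 to 5518 in batch 2. Their part in the lower mitoribosomal signals was not tested. All 4 epithelial markers (Epcam, Vil1, Krt8 and Krt19) were detected, with summed signals of 38051 to 40474 in CONV and 38104 to 42213 in GF of batch 1. In batch 2 these sums were 32988 to 36332 in CONV and 31887 to 38037 in GF, which overlap. Of the colonocyte markers Car4 rose (0.47 ± 0.08; adjusted p = 0.00170), Aqp8 fell (-0.83 ± 0.27; adjusted p = 0.0400) and Krt20 was not called. The summed signal of the colonocyte markers was 6450 to 6892 in CONV and 8193 to 8741 in GF of batch 1, and overlapped in batch 2. Markers of T and B cells summed to 111.8 to 118.8 in CONV and 176.9 to 179.3 in GF of batch 1, and those of myeloid cells to 125.1 to 149.4 and 259.9 to 275.2, while in batch 2 both sums overlapped between the groups. Sums were also higher in GF of batch 1 for goblet cells (14708 to 15494 against 12316 to 12850) and enteroendocrine cells (3933 to 4071 against 2335 to 2593). So were those of fibroblasts and muscle (204.6 to 219.1 against 160.6 to 172.7) and endothelium (134.8 to 152.2 against 122.4 to 126.5), and all of them overlapped in batch 2. The sum of stem and proliferating markers (Lgr5, Top2a and Ascl2) was lower in GF of batch 1 (332.8 to 374.6 against 422.1 to 462.3). It overlapped in batch 2. Sums add all rows of a list, detected or not. Of the 4 fibroblast and muscle rows, 2 were detected on at least 3 arrays. These were Col1a2 and Des, with batch 1 differences of -0.00 and 0.04. Among the cell markers Tff3 (0.68), Cd68 (0.89) and the stem cell marker Lgr5 (0.78) rose and the goblet gene Clca1 fell (-0.57). The value of Cd68 averages 1.75 in batch 1 and 0.02 in batch 2. Not called were, among others, the goblet gene Agr2 (-0.48), Pyy (0.50), Cd3g (0.37) and the myeloid gene Lyz2 (-0.00). Ptprc, Itgam, Csf1r, Col3a1 and Ascl2 were detected on 0 arrays. What these cells add to the mitoribosomal signals was not tested.

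Arrays detected 7090 to 7402 rows in batch 1 and 6089 to 6470 in batch 2, and arrays of a group correlated at 0.994 to 0.998 and 0.979 to 0.990. The batch moved the rows of single mitoribosomal genes far more than the group did, by between -4.66 (Mrpl51) and 3.7 (Mrpl10) log2 units, and 17 of the 53 differed by more than 1 unit between batches, so their levels were compared within batches.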

How the data were processed

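RNA of 12 colonocyte samples was measured on Illumina bead arrays, 6 GF and 6 CONV, with groups, replicate numbers and batches taken from the labels. The authors deposited natural log intensities and a detection p-value for 15154 rows named by gene symbol. That the deposited values are natural logs was read from the values: raised to base e, 95.05% to 97.54% of an array's values ended in few digits, against at most 0.594% with base 2. Among tools, limma stands in the submitters' processing notes, with no version; scanner software, array design and build were not stated in any source used here. Arrays carry no depth, and their number limits the precision.

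Intensities were background corrected with normexp (offset 16), with negative-control levels and their SD inferred from those rows in which the detection p moved in even steps. The steps numbered 1603 in batch 1 and 936 in batch 2, and 4932 and 5566 rows lay off them, among them 17 of the 58 mitoribosomal rows in at least 1 batch. How the authors combined probes in such rows was not stated. Values were then log2 transformed and quantile normalized across the 12 arrays. The filter kept 8122 rows, those detected (p below 0.05) on 3 or more arrays, and 8107 genes after taking each gene's brightest row. Batch and group were modelled with limma 3.58.1 in R 4.3.3 (lmFit and eBayes, two-sided, Benjamini-Hochberg over 8107 genes, threshold 0.05), and a fit with 4 means gave the values within batches and the interaction. The limma fit and the adjustment of p were tested on simulated log2 values, with the same SD for a gene in both batches. Background correction, normalization and the filter were not simulated.

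The mitoribosomal genes, the related lists, the markers and the alternatives were chosen with earlier results of these data known. Genes to name were every called gene, the 5 highest and lowest of each subunit, the 4 brightest uncalled ones, those with a called interaction or an array standing apart, a set of landmarks, and up to 4 of each related list by adjusted p. Same-numbered samples of the groups did not deviate together, with correlations between -0.26 and 0.0395, so the main model has no block. Alternatives covered background correction, scaling, filter, batch term, array weights, rows of a gene and leaving out each sample. The deposited value table held the same values in all 15132 rows it shared with the table used, so it gave no separate alternative. Results of some genes of the related lists are not reported here.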

Additional observations from a re-analysis of the deposited data

Results flagged for a closer look

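In groups of 6, with the batch difference removed, 1 array stood apart from its group for 5 of the 53 genes, by a gap to the nearest other array over the group's range that exceeded Dixon's critical value for 6 samples. Both groups of each of the 53 genes were searched. Chance flags about 1 in 20 groups where the 6 values scatter alike. Here the median SD was 0.07 in batch 1 and 0.13 in batch 2, so that rate need not hold, and flags are likelier in batch 2. All the arrays that stood apart belong to batch 2. The ratio was 0.747 for Mrpl52 in GF replicate 4, the lowest of its group, and 0.725 for Mrps18c in the same sample, also the lowest. For Mrps18c the CONV replicate 4 was the highest of its group (0.667). CONV replicate 4 was the lowest for Mrpl51 (0.632), CONV replicate 5 the lowest for Mrps9 (0.664) and CONV replicate 6 the highest for Mrps16 (0.656). Without GF replicate 4, Mrpl52 kept its call.

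The GF minus CONV difference differed between the batches by limma's interaction test for Mrpl4 (-0.60 for batch 1 minus batch 2), Mrpl9 (-0.57) and Mrpl53 (-0.52). Of all genes, 8.89% were called by that test. Mrpl4 and Mrpl53 were lower in GF of batch 1 and overlapped CONV in batch 2, whereas Mrpl9 was lower without overlap in batch 1 and higher without overlap in batch 2.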

How the results depend on the processing

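Over the alternatives the differences of the 53 genes gave 1374 values. Of these, 1232 kept their side of the threshold, 78 gained a call, 64 lost one and 0 reversed a called direction. Differences that were not called could change sign and still count as kept, as for Mrpl27, which ran from -0.10 to 0.07. Of 1888 genes called in all, 6 of the large and 4 of the small subunit, the counts were 246, 1 and 0 with no batch term (3 and 4 lower at an unadjusted limma p below 0.05, Mrpl37 being the gene still called). They were 3801, 17 and 6 in batch 1 alone (1 higher in each subunit, Mrpl24 and Mrps31) and 219, 0 and 0 in batch 2 alone (4 and 2 lower at an unadjusted p below 0.05), where the median of the large subunit was -0.06. Array weights gave 4283, 21 and 11, with Mrpl24, Mrps23 and Mrps31 higher. No background correction, and normexp without controls (offset 50), gave 1953 and 1924 genes in all. Each gave 8 large and 8 small subunit genes, 2 of the small subunit higher (Mrps23 and Mrps31). Controls inferred over all rows, chosen after seeing the data, gave 1775 genes in all, 10 of the large and 6 of the small subunit. Mrpl24, Mrps23 and Mrps31 were again higher. Leaving out 1 array gave 1367 to 2145 genes in all, 3 to 9 of the large and 3 to 6 of the small subunit, with medians of -0.17 to -0.13 and -0.10 to -0.06. With the replicate block, whose numbers do not pair the samples, 1170 genes were called in all, 2 of the large and 3 of the small subunit. Quantile normalization within each batch was also chosen after seeing the data and, like the scalings, the filters and rows kept apart, left the counts within 1.5 times. The cause of these changes was not tested. Mrpl43 and Mrps7 lost their calls in 17 of 26 alternatives each, Mrpl16 and Mrpl53 in 9 each, and batch 2 alone ended all 10 calls. Rows whose detection p lies between the steps may count as not detected although bright.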
